A study of Mus musculus with 12 samples.

Results

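The transcripts of 7 genes for potassium channels and HCN channels, Kcna1, Kcna2, Kcna4, Kcnd2, Kcnq3, Kcnq5 and Hcn2, were followed in the forebrain of wild-type (WT) and Shank3 knock-out (KO) mice. They were taken by symbol from a table of 19268 genes, in which each of the 7 was found, and each passed the minimum level for testing. RNA came from male C57BL/6J mice, and per the study's methods the olfactory bulb was left out of the tissue. Both Shank3 copies of the KO mice lacked several coding exons, and the product of this gene is a large scaffold under the membrane of glutamatergic synapses. Each of the 4 groups, P25-WT, P25-KO, P60-WT and P60-KO, had 3 libraries, where P25 stands for juvenile mice of postnatal day 25 and P60 for adult mice of day 60. Values are normalized counts, that is, read estimates that the authors had scaled between libraries.

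Potassium channels let potassium leave the neuron and pull the membrane back towards rest, so they set the threshold, the width and the rate of action potentials. Members of the Kcna family form channels of axons and nerve terminals that open at low voltage or inactivate fast, and Kcnd2 encodes the main subunit of the fast A-type current of dendrites. The Kcnq family carries the M-current, a slow current that muscarinic receptors close, and HCN channels pass a mixed cation current that opens on hyperpolarization and binds cyclic AMP. Mutations of several of these genes are known causes of epilepsy or episodic ataxia.

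Potassium channels share the selectivity filter, a short loop in the pore that strips water from potassium ions. The coding sequences around it are shown for the 3 Kcna genes and Kcnd2 because they display both what these neighbouring families share and where they differ. Capitals mark the codons for glycine, tyrosine and glycine at the core of the filter, and each line gives 39 bases of the coding strand, 5′ to 3′.
Kcna1: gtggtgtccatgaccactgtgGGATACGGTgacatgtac
Kcna2: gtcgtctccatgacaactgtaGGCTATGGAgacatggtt
Kcna4: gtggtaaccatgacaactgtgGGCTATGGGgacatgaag
Kcnd2: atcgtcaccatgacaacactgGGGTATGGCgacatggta

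In these 4 genes the capitals were followed by a codon for aspartate (gac). Kcna4 shared 31 of 39 bases with Kcna1 and 31 with Kcna2, and Kcna2 also shared 31 with Kcnd2 from the neighbouring family. Kcna1 was the least like Kcnd2, with 26 bases identical.

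In the mouse assembly GRCm38 with GENCODE release M21, Kcna1 (ENSMUSG00000047976) lies on the minus strand at chr6:126640397-126646384 and its filter at chr6:126642219-126642257, in exon 2 of 2. Kcna2 (ENSMUSG00000040724) lies on the plus strand at chr3:107101146-107115005 and its filter at chr3:107105209-107105247, in exon 3 of 3. Kcna4 (ENSMUSG00000042604) lies on the plus strand at chr2:107290639-107298502 and its filter at chr2:107296480-107296518, in exon 2 of 2. In these 3 genes the whole coding sequence sat in 1 exon.

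The other 4 genes had coding sequences split by introns. Kcnd2 (ENSMUSG00000060882) covers chr6:21215503-21729805 on the plus strand, and its filter sequence joins exons 1 and 2 of 6. Kcnq3 (ENSMUSG00000056258) covers chr15:65986387-66286642 and Kcnq5 (ENSMUSG00000028033) covers chr1:21398403-21961942, both on the minus strand. Hcn2 (ENSMUSG00000020331) lies on the plus strand at chr10:79716634-79736108.

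The targeted gene, Shank3, was lower in every KO library than in every WT library, with a fold of 0.49 over both ages (adjusted p = 3.66e-07, limma). Totals were between 30568259 and 32348554 normalized counts per library. Markers of forebrain excitatory and inhibitory neurons were present in each library, and the 4 olfactory bulb markers summed to 419 to 955. The 3 cerebellar markers summed to 16.1 to 29.9 in 9 libraries, and to 1089 in P60-WT replicate 2, 293 in P60-KO replicate 1 and 51.1 in P60-KO replicate 2. Of these 3, P60-WT replicate 2 was the highest P60 library for Kcnd2 and Kcnq5 and P60-KO replicate 2 for Hcn2, and none was the highest for Kcna1, Kcna2, Kcna4 or Kcnq3. The part of cerebellar tissue in the results was not tested. P25-WT replicate 2 and P25-KO replicate 3 had more hemoglobin and myelin transcripts than the other P25 libraries. The 5 red blood cell markers summed to 38240 and 42983 there, against 20503 to 25304 in the other P25 libraries. P25-WT replicate 2 had the lowest value of the P25 libraries for 6 of the 7 channel genes, and P60-KO replicate 1 had the lowest of the P60 libraries for 6 of the 7. The mean log2 level of 78 ribosomal protein genes, centred within each age, was 0.47 in P25-WT replicate 2, 0.12 in P25-KO replicate 3 and -0.27 to -0.06 in the other P25 libraries. It was 0.10 in P60-KO replicate 1 and -0.08 to 0.05 in the other P60 libraries, and its part in the results was not tested. The age effects of Kcna1, Kcna2 and Kcnq3 over both genotypes are therefore also given without P25-WT replicate 2 and P25-KO replicate 3. For the 7 genes, changes of sign under this omission are given at the end. Results for other genes and lists are given only with these libraries included.

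Levels can be compared between genes only per length, so the normalized counts were divided by the length in kilobases of the longest coding transcript. Hcn2 had the highest level, 1803 ± 98.6 per kilobase (SD over 12 libraries), and its lowest library lay above the highest of any other channel gene. Kcna2 followed with 917 ± 134 and Kcna1 with 686 ± 85.3. Kcnq3 had 615 ± 75.1 and Kcnd2 598 ± 23.9 per kilobase. Kcnq5 had 364 ± 17.5 and Kcna4, the fast-inactivating member of its family, had the lowest level at 148 ± 20.4. The ranges of Kcna2 and Kcna1 overlapped across libraries, but Kcna2 was the higher in each of the 12. Kcna1 was above Kcnq3 in 11 of 12 libraries, and their ranges overlapped. Kcnq3 was above Kcnd2 in 6 of 12, the P60 libraries, so with this length their order differed between the ages. The means of Kcnq3 and Kcnd2 were 550 and 582 per kilobase in P25-WT and 559 and 607 in P25-KO mice. At P60 they were 680 and 607 in WT and 669 and 597 in KO mice. With the length of all exons together, Kcnd2 moved to rank 3, ahead of Kcna1 and Kcnq3, and the other ranks stayed. With the mean length of a gene's coding transcripts, Kcna2 reached 1734 ± 253 per kilobase and Hcn2 1834 ± 100 (SD over 12 libraries), and their ranges overlapped. With this length Kcna2 was above Hcn2 in P60-WT mice, with means of 1996 and 1798 per kilobase, so the separation of Hcn2 from Kcna2 depends on the length used.

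The comparison of P60 with P25 asked how each gene's transcript level differed between the juvenile and the adult forebrain. Kcna1, Kcna2 and Kcnq3 were higher at P60 over both genotypes, by 1.18-, 1.27- and 1.22-fold. Kcna4, Kcnd2, Kcnq5 and Hcn2 did not pass the test, with folds between 1.01 and 1.08. Thus 3 of the 7 genes were called higher and 0 lower, where 18.3% of all 17594 genes tested were called higher and 19.3% lower. All changes are on the log2(normalized count + 1) scale and were tested with limma, with Benjamini-Hochberg adjustment over all genes tested and a threshold of 0.05.

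Kcna2 encodes an alpha subunit of the low-threshold channels beside the nodes of Ranvier. Its values were 10026, 8406 and 10239 normalized counts in the P25-WT libraries and 9652, 9533 and 8427 in the P25-KO libraries. At P60 they were 11635, 12221 and 12839 in WT and 10489, 11136 and 12905 in KO mice. Every P60 library lay above every P25 library, which held for 8.79% of all genes tested in this direction. The log2 change was 0.34 ± 0.06 (SE, 95% confidence interval 0.21 to 0.47, adjusted p = 0.000732, limma).

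Kcnq3, a subunit of the M-channel, had the other such pattern. It had 6839, 5623 and 7047 normalized counts in P25-WT and 6566, 7058 and 6220 in P25-KO libraries. The P60-WT libraries had 7587, 8138 and 8401 and the P60-KO libraries 7412, 7759 and 8573. Again the ages did not overlap, and the KO and WT ranges overlapped at each age. The log2 change was 0.29 ± 0.06 (SE, interval 0.16 to 0.41, adjusted p = 0.00193, limma).

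Kcna1 encodes the subunit that is mutated in episodic ataxia with myokymia and that assembles with the Kcna2 product in axons. Its P25 values were 2838, 2296 and 2628 in WT and 2541, 2564 and 2326 in KO libraries. At P60 the values were 2906, 3019 and 3367 in WT and 2507, 2938 and 3243 in KO libraries. All P60-WT libraries lay above all P25-WT libraries, but P60-KO replicate 1 fell among the P25-KO libraries, so the ages overlapped. The log2 change was 0.24 ± 0.07 (SE, interval 0.10 to 0.39, adjusted p = 0.0126, limma).

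The remaining 4 genes did not pass the test. Kcna4, whose product gives rapidly inactivating currents in axons, had 580, 707 and 787 normalized counts in P25-WT and 720, 784 and 538 in P25-KO libraries. It had 651, 801 and 735 in P60-WT and 620, 740 and 870 in P60-KO libraries. Its log2 change of 0.11 ± 0.11 (SE) had an interval from -0.12 to 0.34, the widest of the 7. Kcnd2 had 3074, 2786 and 3131 in P25-WT, 3122, 3271 and 2995 in P25-KO, 3077, 3240 and 3066 in P60-WT and 3043, 3138 and 3051 in P60-KO libraries. Its 3 P60-KO values were within 3043 to 3138, and the interval of its log2 change, -0.07 to 0.11, was the narrowest of the 7.

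Kcnq5, the M-channel subunit of lower level here, had 2527, 2389 and 2540 normalized counts in P25-WT and 2571, 2599 and 2393 in P25-KO libraries. It had 2514, 2743 and 2669 in P60-WT and 2319, 2577 and 2618 in P60-KO libraries, with a log2 change of 0.04 ± 0.05 (SE, interval -0.06 to 0.14). All 4 groups overlapped. Hcn2, the HCN gene of thalamic relay and many cortical neurons, had 6107, 5523 and 5632 in P25-WT and 5994, 5593 and 5527 in P25-KO libraries. It had 5823, 5656 and 5470 in P60-WT and 5976, 6451 and 5387 in P60-KO libraries. Its highest and its lowest value of all 12 libraries both came from P60-KO, and its log2 change was 0.01 ± 0.05 (SE, interval -0.09 to 0.12).

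**Figure D1:**
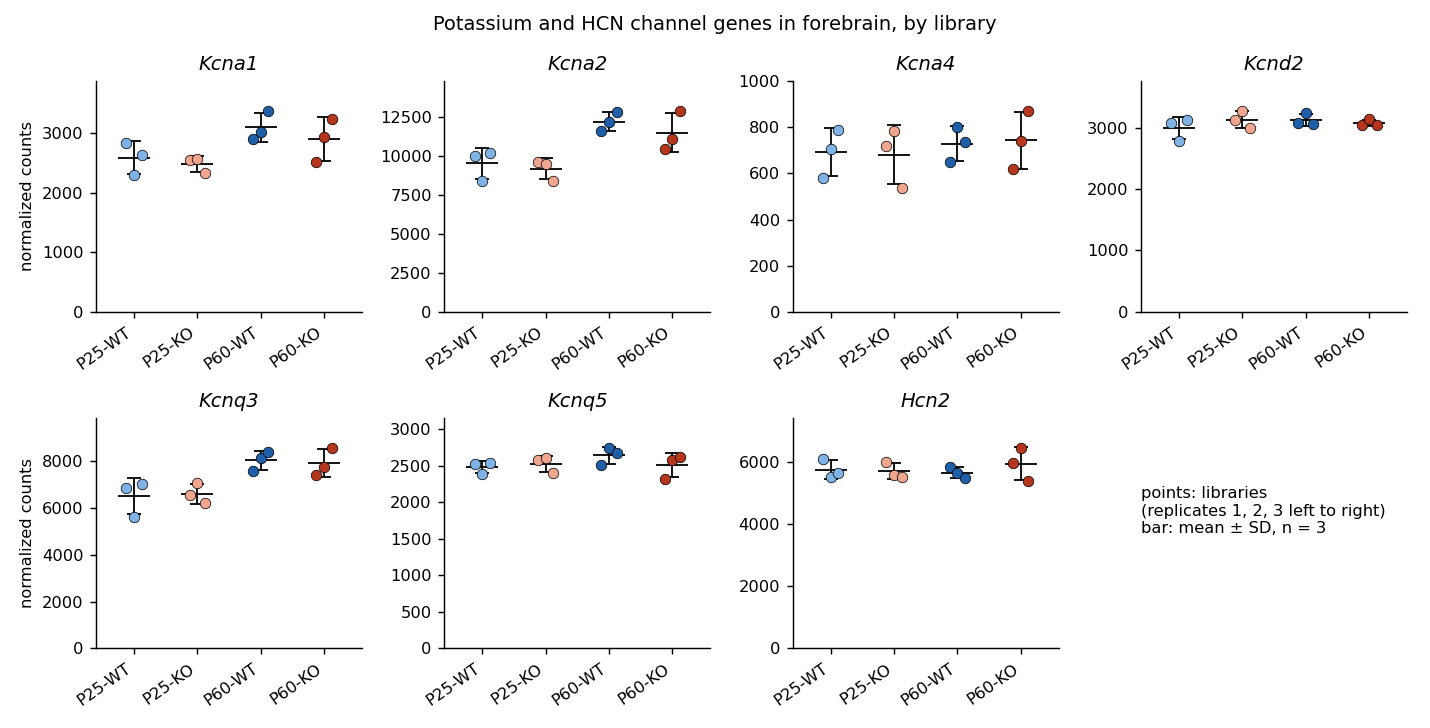
Normalized counts of the 7 channel genes in each of the 12 libraries, with the group on the x axis, 1 point per library and bars for the mean and SD of 3 libraries. The P60 points of Kcna2 start at 10489, above the highest P25 point at 10239, and those of Kcnq3 start at 7412, above 7058, whereas the ages overlap in the other 5 genes.

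Within each genotype Kcna1, Kcna2 and Kcnq3 had positive log2 changes with larger errors, whereas Hcn2 had -0.03 ± 0.07 (SE) in WT mice, and Kcnd2 and Kcnq5 had -0.02 ± 0.05 and -0.01 ± 0.07 in KO mice. In WT mice Kcna2 was higher at P60, from 9557 ± 1003 to 12232 ± 602 normalized counts (SD, n = 3), a log2 change of 0.36 ± 0.09 (SE, adjusted p = 0.0391, limma). No other of the 7 genes was called there, and 3.66% of all 17581 genes tested were called higher in that comparison. The call was lost without P25-WT replicate 1 (adjusted p = 0.0879, limma) or without P60-WT replicate 1, 2 or 3 (0.0985, 0.105 and 0.172), with log2 changes between 0.32 and 0.40. The P60-WT and P25-WT libraries did not overlap for Kcna1, Kcna2 and Kcnq3, as for 17.6% of all genes in this direction. Kcnq3 changed from 6503 ± 769 to 8042 ± 415 (SD, n = 3), a log2 change of 0.31 ± 0.09 (SE, adjusted p = 0.0702, limma). Without P25-WT replicate 2 or 3 it passed the threshold (adjusted p = 0.0391 and 0.0382, limma), with log2 changes of 0.21 and 0.37.

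In KO mice Kcna2 and Kcnq3 were higher at P60, where 9.37% of all 17596 genes tested were called higher. Kcna2 went from 9204 ± 675 to 11510 ± 1251 normalized counts (SD, n = 3), a log2 change of 0.32 ± 0.08 (SE, adjusted p = 0.0208, limma). Kcnq3 went from 6615 ± 421 to 7914 ± 596 (SD, n = 3), a log2 change of 0.26 ± 0.07 (SE, adjusted p = 0.024, limma). Both genes had P60-KO libraries above all P25-KO libraries, as had 18.9% of all genes in this direction. Leaving out P25-KO replicate 3 or P60-KO replicate 3 ended the call of Kcna2 (adjusted p = 0.0711 and 0.0551, limma). The same 2 omissions ended that of Kcnq3 (adjusted p = 0.0813 and 0.0752, limma), as did leaving out P25-KO replicate 1 (0.0698). Kcna1 had a log2 change of 0.22 ± 0.09 (SE, adjusted p = 0.107, limma), which passed without P60-KO replicate 1 (log2 change 0.32, adjusted p = 0.0257). When the fit took no trend of the variance with the level, neither genotype had a call among the 7, with adjusted p = 0.118 for Kcna2 in WT and 0.103 in KO mice and 0.105 for Kcnq3 in KO mice (limma). With all 12 libraries in 1 fit Kcna2 was called in both genotypes and Kcnq3 in WT (adjusted p = 0.0239, limma) but not in KO mice (0.0632).

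Over both genotypes the calls of Kcna1, Kcna2 and Kcnq3 remained when any of the 12 libraries was left out. The log2 change of Kcna1 was then between 0.20 and 0.29, that of Kcna2 between 0.30 and 0.37 and that of Kcnq3 between 0.24 and 0.31. When both P25 libraries with high hemoglobin were left out, Kcna2 kept a log2 change of 0.26 (adjusted p = 0.0015, limma) and Kcnq3 of 0.21 (adjusted p = 0.00298). Kcna1 then had 0.18 (adjusted p = 0.0517, limma) and was no longer called.

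Cell type markers also differed between the ages, and their part in these results was not tested. All 8 markers of mature oligodendrocytes were lower at P60, with summed levels of 394869 to 511245 normalized counts in the P25 libraries and 192874 to 220389 in the P60 libraries. All 5 red blood cell markers were lower too, with sums of 20503 to 42983 at P25 and 5894 to 7305 at P60. The 7 glutamatergic neuron markers summed to 154476 to 164384 at P25 and 133177 to 138763 at P60, and 4 of them were called lower and 1 higher. The 7 GABA interneuron markers had overlapping sums, 29202 to 30866 at P25 and 28908 to 31400 at P60, with 2 called higher and 2 lower. The 7 astrocyte markers summed to 131026 to 147493 at P25 and 110210 to 122230 at P60, and 6 of them were called lower. The 4 oligodendrocyte precursor markers summed to 11844 to 13568 at P25 and 8283 to 9603 at P60, with 3 called lower. The 7 markers of striatal projection neurons summed to 23654 to 27256 at P25 and 22224 to 23227 at P60, with 1 called lower and 0 higher. The sums of the thalamic, microglial, endothelial and choroid plexus lists overlapped between the ages. Of their markers, 1 of 4 thalamic and 2 of 6 microglial ones were called lower and 0 higher. In the endothelial list 1 of 5 and in the choroid plexus list 2 of 4 were called higher and 0 lower. No marker in these lists was at 0 in any library, whereas the cerebellar marker Gabra6 was at 0 in at least 1. In whole tissue, fewer cells of a type and less RNA per cell cannot be told apart, nor can age and any day of dissection or library preparation that went with it.

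**Figure D2:**
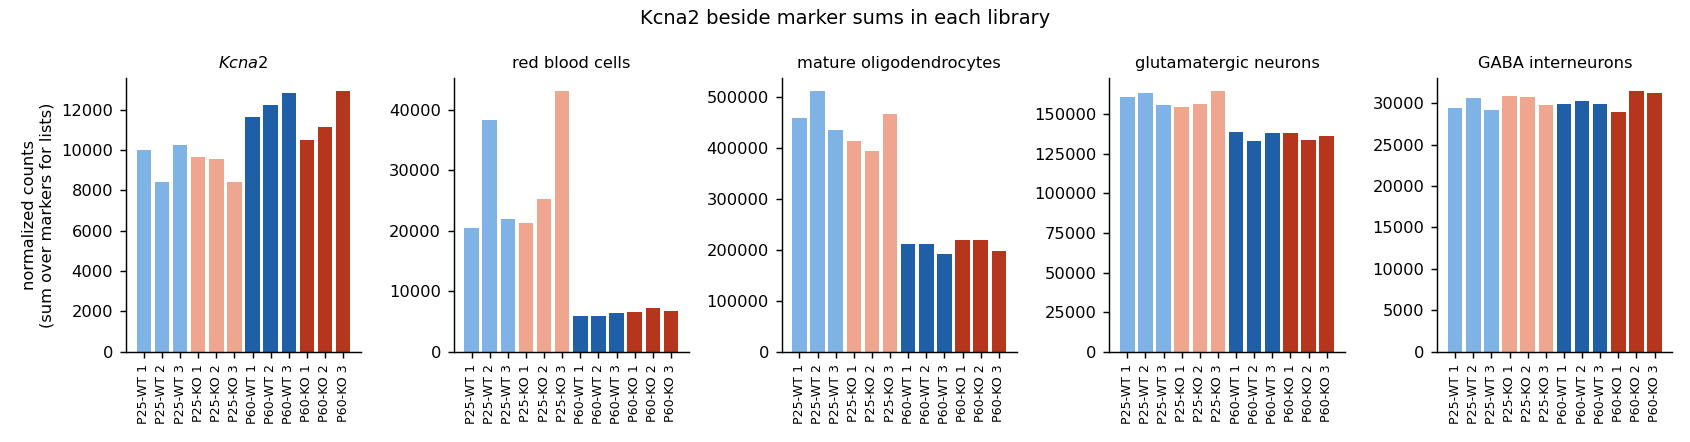
Normalized counts of Kcna2 and summed normalized counts of 4 marker lists, with 1 bar for each of the 12 libraries on the x axis. Kcna2 is higher in the 6 P60 libraries, the red blood cell and oligodendrocyte sums are higher in the 6 P25 libraries, and the GABA interneuron sums stay between 28908 and 31400.

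The comparison of KO with WT mice asked whether disruption of Shank3 changed the transcripts of these channels at either age. None of the 7 genes passed the test at P25, at P60 or over both ages, and each adjusted p was 1 (limma). None had an unadjusted p under 0.05 in any of the 3 comparisons (limma). Of all genes, 238 of 17515 had one at P25, 440 of 17610 at P60 and 361 of 17594 over both ages. At such low shares, 0 of 7 does not set these genes apart. The share of all genes called was 0.00571% at P25 and 0.00568% both at P60 and over both ages, which is 1 gene, Shank3, in each case. The KO and WT libraries overlapped for each of the 7 genes at each age. Of all genes, 4.76% did not overlap at P25 and 7.79% at P60, so 0 of 7 is near these shares.

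Over both ages the log2 change of Kcna1 in KO against WT mice was -0.08 ± 0.07 (SE, 95% confidence interval -0.23 to 0.06) and that of Kcna2 was -0.07 ± 0.06 (-0.20 to 0.06), or 0.95-fold in each. These were the lowest of the 7, and in both genes the mean was lower in KO than in WT mice at each age. Kcnq5 had a log2 change of -0.03 ± 0.05 (SE, interval -0.13 to 0.07) and Kcnq3 of 0.00 ± 0.06 (-0.12 to 0.13). Kcnd2 had 0.02 ± 0.04 (SE, interval -0.07 to 0.11), Hcn2 0.03 ± 0.05 (-0.07 to 0.13) and Kcna4 0.00 ± 0.11 (-0.23 to 0.23). These intervals rest on 6 KO and 6 WT libraries.

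Within each age the intervals were wider. At P25 the log2 change of Kcna2 was -0.05 ± 0.09 (SE, interval -0.26 to 0.16), that of Kcnq3 0.03 ± 0.10 (-0.19 to 0.25) and that of Kcna4 -0.03 ± 0.16 (-0.39 to 0.34). At P60 Kcna1 had -0.10 ± 0.09 (SE, interval -0.31 to 0.11), Kcna2 -0.09 ± 0.07 (-0.26 to 0.08) and Kcnq5 -0.08 ± 0.06 (-0.22 to 0.07). Hcn2 had a mean of 5938 ± 533 normalized counts in P60-KO and 5650 ± 177 in P60-WT libraries (SD, n = 3), a log2 change of 0.07 ± 0.07 (SE, interval -0.08 to 0.22). The SD of Hcn2 in P60-KO was the largest of its 4 groups, with P60-KO replicate 2 at 6451 and replicate 3 at 5387.

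Whether the age effect differed between the genotypes was tested as an interaction over all 12 libraries. It was called for 0 of the 7 genes and for 0 of the 17594 genes tested (limma). An unadjusted p under 0.05 was found for 0 of the 7 and for 288 of the 17594 genes. For Kcna2 the log2 age effect in KO minus that in WT was -0.04 ± 0.13 (SE, interval -0.32 to 0.23), and for Kcnq3 it was -0.05 ± 0.12 (SE, interval -0.32 to 0.21). Kcnq5 and Kcnd2 had the most negative values, -0.10 ± 0.09 and -0.09 ± 0.09 (SE), and Hcn2 the most positive, 0.08 ± 0.10 (SE).

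**Figure D3:**
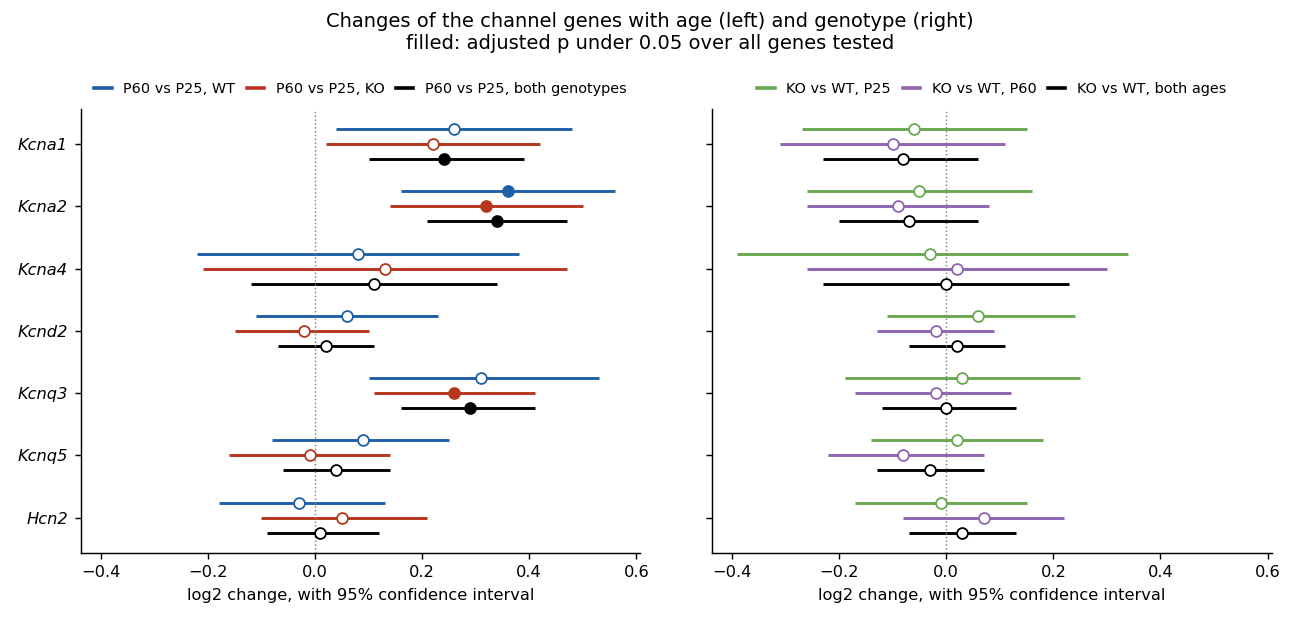
Log2 changes of the 7 channel genes with 95% confidence intervals, P60 against P25 on the left and KO against WT on the right, where filled points have an adjusted p under 0.05. Filled points appear only on the left, for Kcna2 in all 3 age comparisons, for Kcnq3 in KO mice and over both genotypes, and for Kcna1 over both genotypes, and every interval on the right crosses 0.

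The closest relatives of these genes did not all share their direction with age. In the Kcna family, Kcna3 was higher at P60 over both genotypes, with a log2 change of 0.34 ± 0.10 (SE, adjusted p = 0.0115, limma). Kcna5 and Kcna6 were lower, with log2 changes of -0.30 ± 0.11 (adjusted p = 0.0431) and -0.18 ± 0.04 (adjusted p = 0.00277). Of the 6 Kcna genes described, 3 thus rose, 2 fell and Kcna4 did not pass the test.

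Kcnd3, the other main A-type subunit gene of the forebrain, rose by a log2 change of 0.46 ± 0.07 (SE, adjusted p = 0.000175, limma), while Kcnd2 did not pass the test. Kcnd3 had 2194, 2267, 3106 and 3007 normalized counts on average in P25-WT, P25-KO, P60-WT and P60-KO mice. Kcnd1 had a log2 change of -0.05 (adjusted p = 0.696). Among the relatives of Hcn2, Hcn4 fell, with a log2 change of -0.24 ± 0.08 (SE, adjusted p = 0.0238), and Hcn3 had -0.07 (adjusted p = 0.448).

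Ratios of subunit genes within a library do not depend on a scaling factor that all genes of the library share. They are given as a description because the 4 ratios were chosen after the values had been seen. The ratio of Kcnq3 to Kcnq5 was 2.61 ± 0.226 in P25-WT, 2.62 ± 0.0834 in P25-KO, 3.04 ± 0.0930 in P60-WT and 3.16 ± 0.135 in P60-KO mice (SD, n = 3). It ranged from 2.35 to 2.77 at P25 and from 2.97 to 3.27 at P60, so the ages did not overlap. The ratio at P60 was 1.19-fold that at P25.

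The ratio of Kcna2 to Kcna1 ranged from 3.53 to 3.90 at P25 and from 3.79 to 4.18 at P60, a fold of 1.07. Kcna2 to Kcna4 and Kcna4 to Kcnd2 also overlapped between the ages, with folds of 1.18 and 1.06. Apart from Kcnq3 to Kcnq5, each of these 4 ratios overlapped between P25 and P60.

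**Figure D4:**
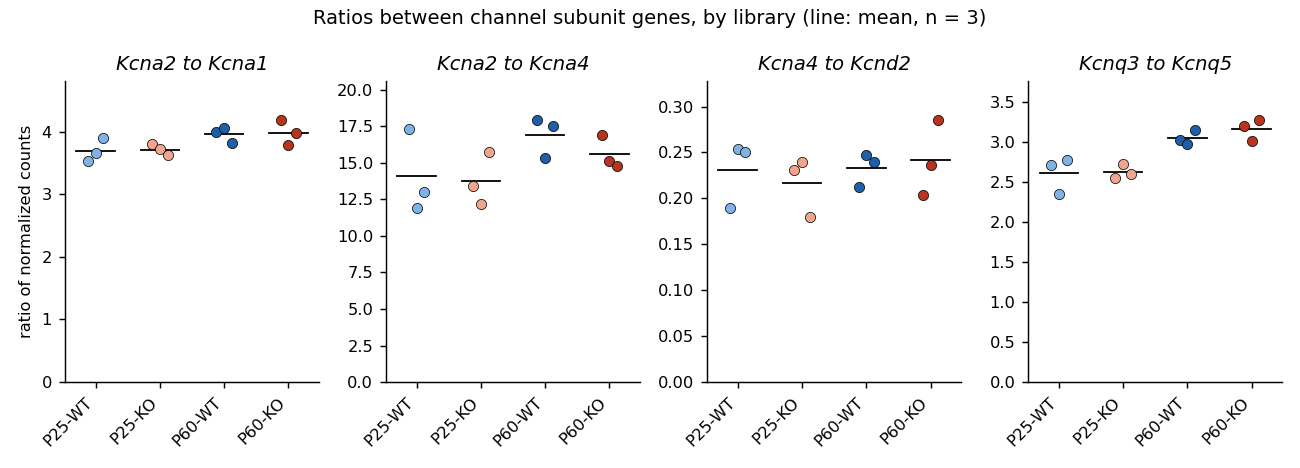
Ratios of the normalized counts of 2 subunit genes in each of the 12 libraries, with the group on the x axis and a line at the mean of 3 libraries. The ratio of Kcnq3 to Kcnq5 is at most 2.77 at P25 and at least 2.97 at P60, and the other 3 ratios overlap between the ages.

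Of 99 other genes listed for potassium and HCN channels and their partners, 87 were in the table and 86 were tested. Over both genotypes 27 were called higher at P60 and 13 lower, with a median log2 change of 0.08, where that of all genes was 0.00. These are 31.4% and 15.1% of the 86, beside 18.3% and 19.3% of all genes tested. The differences between these shares were not tested. Among 22 other voltage-gated potassium channel alpha subunits, 10 were higher and 5 lower, or 45.5% and 22.7%. Kcnh3, of the EAG-like family, fell, with a log2 change of -0.25 ± 0.04 (SE, adjusted p = 0.00017, limma).

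The lists that follow are small, and their counts are to be read against the same shares of all genes, 18.3% higher and 19.3% lower. Calcium- and sodium-activated channels had 4 of 8 genes higher and 0 lower, and the silent subunits, which form no channel alone, had 1 of 9 higher. Inward rectifiers had 3 of 13 higher and 2 lower, or 23.1% and 15.4%, which is near the shares of all genes. Among them Kcnj6, a channel opened by G proteins, rose by 0.53 ± 0.09 (SE, adjusted p = 0.000375, limma), and Kcnj4, a constitutive rectifier, had -0.36 ± 0.04 (adjusted p = 3.83e-05). The tandem-pore channels, which carry leak current, had 0 of 10 higher and 3 lower. The 11 sodium channel subunits tested had 7 higher and 1 lower, with a median log2 change of 0.20.

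Auxiliary and partner proteins had 8 of 21 genes higher and 2 lower, or 38.1% and 9.52%. Pex5l encodes a protein that binds HCN channels and directs their traffic in dendrites. It had the smallest adjusted p of the channel and partner genes, with 4007 and 3948 normalized counts on average in P25-WT and P25-KO and 5737 and 5708 in P60-WT and P60-KO mice. Its log2 change was 0.52 ± 0.05 (SE, adjusted p = 2.05e-06, limma), while Hcn2 had 0.01. Kcnmb4, the neuronal beta subunit of the large calcium-activated channel, fell, with a log2 change of -0.31 ± 0.06 (adjusted p = 0.0013).

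The partners that bind the products of the 7 genes were also read family by family, a choice made after their values had been seen. Of the beta subunits of Kcna channels, Kcnab1 rose by 0.16 ± 0.04 (SE, adjusted p = 0.00961, limma) and Kcnab3 by 0.29 ± 0.07 (adjusted p = 0.00668), and Kcnab2 had -0.06 (adjusted p = 0.176). Of the calcium-binding partners of Kcnd channels, Kcnip4 rose by 0.50 ± 0.18 (SE, adjusted p = 0.0357), Kcnip3 had -0.21 ± 0.05 (adjusted p = 0.00348), and Kcnip1 and Kcnip2 did not pass the test. Kcnip4 was more scattered at P25, where the SE of its log2 change in KO against WT was 0.31, than at P60 (0.07). Dpp10, which speeds Kcnd channels, rose by 0.17 ± 0.05 (SE, adjusted p = 0.00999), and Dpp6 had -0.05 (adjusted p = 0.313). Cntnap2, which anchors Kcna channels beside the node, rose by 0.14 ± 0.04 (SE, adjusted p = 0.0228), and its binding partner Cntn2 had 0.17 ± 0.08 (adjusted p = 0.11). Ank3, the scaffold that holds Kcnq3 at the axon initial segment, had a log2 change of 0.01 (adjusted p = 0.895).

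Within the genotypes fewer of the 86 genes were called. In WT mice 7 were higher and 1 lower, or 8.14% and 1.16%, beside 3.66% and 4.99% of all genes tested. These 8 calls became 2, 1, 1 and 0 without P25-WT replicate 1 or P60-WT replicate 1, 2 or 3, and 15 without P25-WT replicate 2. In KO mice 12 were higher and 7 lower, or 14% and 8.14%, beside 9.37% and 11.3% of all genes. These 19 calls became 11 without P25-KO replicate 1, 9 without P25-KO replicate 3 and 12 without P60-KO replicate 3. Of the 86, 6 were called in both genotypes, each in the same direction, as were all 1282 of the genes called in both. In the KO against WT comparisons and in the interaction, 0 of the 86 were called (limma). In each of them 1 had an unadjusted p under 0.05, not the same gene throughout. Of all genes, 238 of 17515 had one at P25 and 440 of 17610 at P60. Over both ages 361 of 17594 had one, and in the interaction 288 of 17594.

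**Figure D5:**
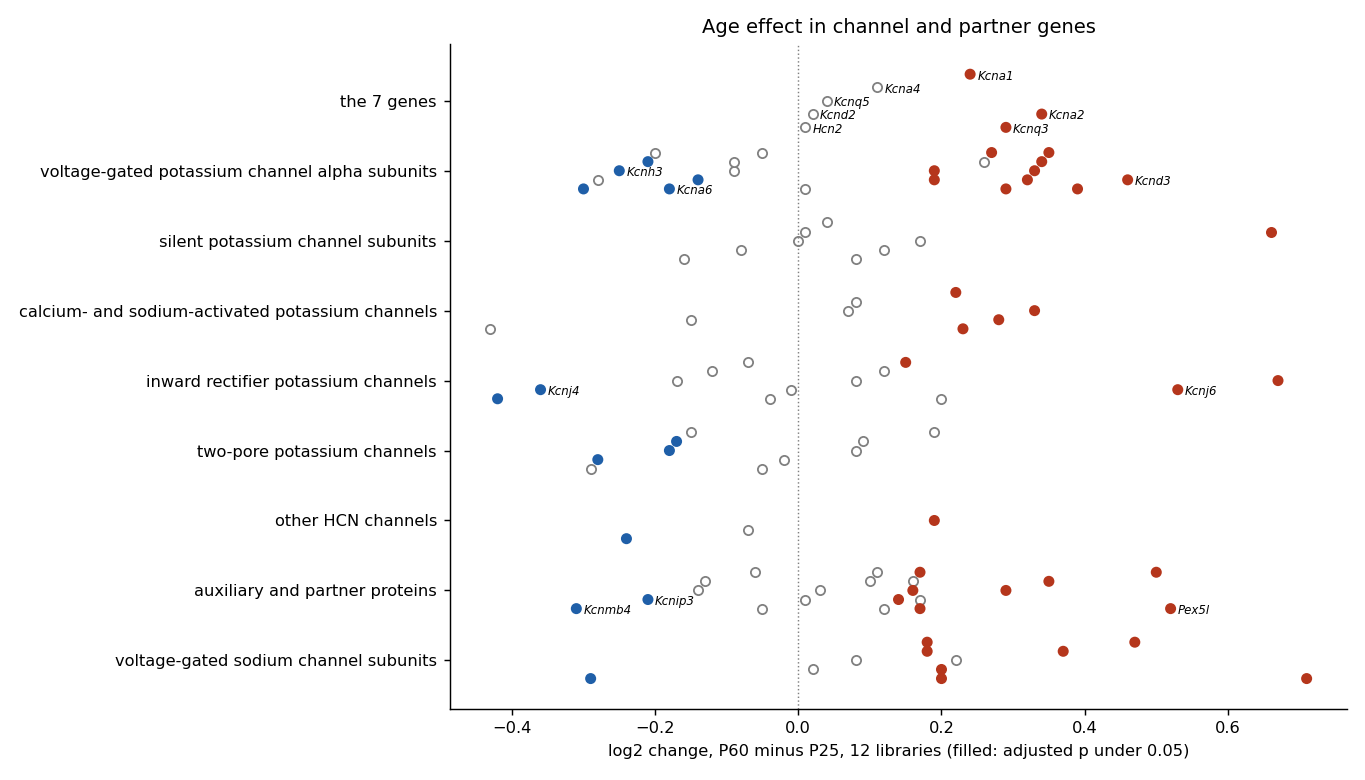
Log2 change from P25 to P60 over both genotypes for the 7 channel genes, 8 lists of other channel and partner genes, 1 point per gene and 1 row per list, where filled points have an adjusted p under 0.05. The filled points of the 7 genes lie at 0.24, 0.29 and 0.34, the tandem-pore channels have filled points only below 0, and the sodium channel subunits have 7 filled points above 0 and 1 below.

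Across the 12 libraries, Kcna2 and Kcnq3 varied together (Pearson's r = 0.96 on the log2 scale), as did Kcna1 and Kcna2 (0.95) and Kcna1 and Kcnq3 (0.90). Hcn2 had coefficients between -0.28 and 0.22 with the other 6 genes. These coefficients are descriptions over 12 libraries that share their age groups and their scaling. Among 12155 genes, Kcna2 was most like Lnpep (0.994) and Dock4 (0.989), and Kcnq3 most like Peg3 (0.983) and Nos1ap (0.982). Kcna1 was most like Slc9a7 (0.966) and Pdzd8 (0.964), Kcnq5 most like Dnajc6 (0.939) and Thsd7a (0.914), and Kcnd2 most like Tacc2 (0.908) and Atp11b (0.906). The nearest genes of Kcna4 were Ndufaf1 (0.897) and Gucy1a1 (0.821). The nearest of Hcn2 were Ctdp1 (0.797) and Ica1 (0.771).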

How the data were processed

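RNA from forebrain of 12 mice was sequenced after TruSeq library preparation. The authors quantified transcripts with Salmon 1.1.0 with GC bias correction and normalized the imported estimates with DESeq2, for which the submitters' notes give version 1.26.0. The deposited values are a signal, normalized counts that are not whole reads, so depth is unknown and no count model was fitted. The reference transcriptome and the use of strand are not given in the sources used here.

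The tests used limma 3.58.1 and R 4.3.3, with lmFit and eBayes (with trend) on log2(value + 1), and took the genes whose mean in the fitted libraries reached 10. P-values were adjusted over all genes tested, with a threshold of 0.05, and measure the spread between libraries. The log2 scale understates changes of low genes. The 7 genes and the lists were chosen with earlier results of these data known. Named genes were the 7 genes, Shank3, their subfamily paralogs, the 5 channel or partner genes in each direction whose age effect had the lowest adjusted p, and the 2 genes of highest correlation with each of the 7 among genes with a mean of at least 100. The other partner genes (Kcnab, Kcnip and Dpp genes, Cntnap2, Cntn2 and Ank3) were named after their values were seen. Some genes and sequences under the rule are not reported here. Sequences, positions and lengths came from GENCODE release M21 (GRCm38). At most 0.923% of the 31-base words of each gene's transcripts occurred in other genes. The subunit ratios and the omission of 2 libraries were added after seeing the data. The fitting procedure was tested on simulated data with independent libraries and the same dispersion for all genes. These data hold no shift shared by many genes of a library, so the test does not cover such shifts.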

Additional observations from a re-analysis of the deposited data

How the results depend on the processing

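An unknown depth and 3 libraries per group limit the precision. Over both genotypes, Kcna2 and Kcnq3 remained called under every alternative, and Kcna1 under every one but the omission of both P25 libraries with high hemoglobin. Of the alternative values of single genes, 781 kept direction and call, 60 changed sign, 16 lost a call and 4 gained one. The cause of the changes that follow was not tested. With all libraries scaled to 1 total, the log2 change of the median gene with age shifted by 0.043 over both genotypes and the split moved from 3219 higher and 3397 lower to 4038 and 2730. Under this scaling the log2 changes turned for Hcn2 with age in WT (0.03), Kcnd2 (0.01) and Kcnq5 (0.02) with age in KO, Hcn2 with genotype at P25 (0.00) and Kcna4 with genotype over both ages (0.00). Omitting both P25 libraries turned Kcnd2 (-0.02) and Hcn2 (-0.01) with age, Kcna4 (0.07) and Kcnq3 (-0.03) with genotype, and the interactions of Kcna4 (-0.13) and Kcnq3 (0.00). Without an intensity trend, the age effect in WT called 192 genes in place of 1521, 0 of the 7 and 0 of the 86 channel and partner genes (main 8), the age effect in KO called 1725 in place of 3641, 0 of the 7 and 5 of the 86 (main 19), and genotype called 0 genes at each age. With all 12 libraries in 1 fit, the age effect in WT called 3442 genes, 2 of the 7 and 17 of the 86, and that in KO called 1 of the 7 and 11 of the 86. Same-numbered libraries of 2 groups had deviations that correlated between -0.07 and 0.17, and not every coefficient passed 0.1 in any comparison, so the numbers were not taken as pairs. Between P60-WT and P60-KO 6 of 6 libraries correlated best with their own number, a hint from the data, and in the other comparisons 2 of 6 did. With the replicate number as a block, the age effect in KO called 2482 genes, 0 of the 7 and 11 of the 86, the genotype effect at P25 called 0 genes, and no other call of the 7 genes changed. Leaving out 1 library at a time gave 122 to 2403 genes, 0 to 2 of the 7 and 0 to 15 of the 86 for age in WT, with the lowest counts of genes without P60-WT replicate 3 and the highest without P25-WT replicate 2. It gave 2093 to 3230 genes, 0 to 3 of the 7 and 9 to 15 of the 86 for age in KO, 0 to 8 genes for genotype at P25, 1 to 3 at P60 and 0 to 1 for the interaction. Log2 changes that turned in this way ranged, for age in WT, from -0.04 to 0.18 (Kcna4) and -0.05 to 0.02 (Hcn2). For age in KO they ranged from -0.03 to 0.25 (Kcna4), -0.05 to 0.01 (Kcnd2), -0.05 to 0.04 (Kcnq5) and -0.01 to 0.12 (Hcn2), and over both genotypes from -0.01 to 0.04 (Kcnd2) and -0.02 to 0.04 (Hcn2). For genotype at P25 they ranged from -0.14 to 0.01 (Kcna1 and Kcna2), -0.15 to 0.13 (Kcna4), -0.07 to 0.09 (Kcnq3), -0.01 to 0.06 (Kcnq5) and -0.05 to 0.03 (Hcn2). At P60 they ranged from -0.10 to 0.14 (Kcna4), -0.04 to 0.00 (Kcnd2) and -0.08 to 0.02 (Kcnq3), and over both ages from -0.06 to 0.07 (Kcna4), -0.01 to 0.04 (Kcnd2), -0.05 to 0.03 (Kcnq3), -0.05 to 0.00 (Kcnq5) and 0.00 to 0.05 (Hcn2). For the interaction they ranged from -0.13 to 0.06 (Kcna1), -0.13 to 0.05 (Kcna2), -0.11 to 0.17 (Kcna4) and -0.12 to 0.05 (Kcnq3).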
